A study of Rattus norvegicus with 10 samples.

Results

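The SPI diet was compared with the CAS diet by the messenger RNA of the mammary gland of young female rats. The comparison took the arrays whose titles begin with SPI or CAS: 4 SPI arrays (numbered 2, 3, 4 and 5) and 3 CAS arrays (numbered 1, 2 and 3), of the 10 arrays in the series. The other 3 arrays, of the genistein diet GEN, entered the estimate of the spread, the filter on dim probe sets and the choice of each gene's brightest probe set, all taken over the 10 arrays. All animals were Sprague-Dawley rats, an outbred stock, each fed 1 of the 3 purified diets, and the gland was taken at postnatal day 50. The labels do not spell out CAS and SPI. From knowledge of the study, CAS stands for casein, the usual reference protein, and SPI for soy protein isolate, a soy fraction that carries isoflavones, plant compounds that bind estrogen receptors. By the title of the series, the question was how such a diet alters gene expression in the mammary epithelium. For each array 8 ug of RNA from the number 4 mammary gland was labelled, pooled in equal parts from 2 animals, except that the labelling protocol of CAS 3 names 7 animals and no gland. Per the labels, 3 labelled targets were made from each pool, without word of which arrays share a pool, so some of the spread behind the p-values may be technical.

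The source was labelled as epithelial cells, while the protocols name the gland and the design text names colon. The signals held markers of milk-forming epithelium, fat, fibroblasts and vessels together. The milk gene Lalba had a signal of at least 5707 on each of the 7 arrays and the milk gene Csn1s1 of at least 9120, CAS 3 included. Of markers measured, 14 of 17 adipocyte, 23 of 24 fibroblast and 20 of 20 endothelial genes passed the filter on dim probe sets. Over all measured genes, 7119 of 10411 passed it. Of 10 colon genes, a list written after the results were seen, 8 did not pass it, and Cdx2 and Lgals4, which did, reached signals of 476 and 251. CAS 1 and SPI 4 stood apart in muscle genes and in RNA quality values. CAS 1 had high signals of skeletal muscle genes, with Acta1 at 1731 and Ckm at 1362, against at most 259 and 299 on the other 6 arrays. SPI 4 had the highest beta-actin 3'/5' ratio, in which high values mean shorter transcripts, at 7.77 against 2.94 to 5.22, and a GAPDH ratio of 2.91 against 1.40 to 1.89. By the median absolute log2 difference from each of the other 6 arrays, CAS 3 was as far from them as these, at 0.213 to 0.318, against 0.220 to 0.318 for SPI 4 and 0.231 to 0.283 for CAS 1. Several results are also given without a single array or without CAS 1 and SPI 4 together.

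The mammary gland at this age is a tree of ducts growing into a pad of fat. Luminal cells line the ducts and later secrete milk, basal myoepithelial cells contract around them, and fibroblasts, vessels, nerves and immune cells fill the stroma. Estrogen, progesterone and prolactin drive the growth of the tree, and macrophages and mast cells gather around its growing ends.

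No probe set passed the adjusted threshold. In limma, 0 of 9520 probe sets (0%) had an adjusted p under 0.05 (Benjamini-Hochberg), and the smallest adjusted p was 0.170, that of Reg3b. At an unadjusted p under 0.05 there were 146 probe sets higher on SPI (1.53%) and 313 lower (3.29%), 459 in all, where 476 would be expected with no difference. With each array centred on its median signal the split turned to 300 higher and 174 lower. Quantile normalization kept the excess of lower calls, with 172 higher and 254 lower, so the direction depended on which scaling was used. Without CAS 3, the array with another protocol, there were 174 higher and 246 lower. With each of 7119 genes taken by its brightest probe set, 48.3% of the differences were above 0, and the median log2 difference was -0.009. Among these genes 114 were higher (1.6%) and 242 lower (3.4%) at an unadjusted p under 0.05. The SPI arrays lay wholly above the CAS arrays for 133 genes (1.87%) and wholly below them for 194 (2.73%). One side of the unadjusted 95% interval was 0.41 log2 units wide for the median probe set. The adjusted test is stricter, so this width is not its limit of detection. The differences described next did not pass the adjusted test, and gene lists are given by counts of their tested members beside these shares.

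A secreted defence gene had the smallest adjusted p. Reg3b, a lectin that binds bacteria, had signals of 427, 302 and 474 on CAS 1, 2 and 3 and of 146, 75, 158 and 90.8 on SPI 2, 3, 4 and 5, an order kept for all values that follow. The log2 difference, SPI minus CAS, was -1.81 ± 0.28 (SE), which is 3.52-fold lower on SPI. Il17b, a cytokine of epithelia, had signals of 590.2, 311 and 636 on CAS and 269, 259, 198 and 246 on SPI (-1.02 ± 0.23, adjusted p = 0.582). For both genes every SPI array lay below every CAS array. The list of 22 tested cytokine, chemokine and mucosal defence genes had 8 members higher and 14 lower, with a median of -0.193. Of its members, 4 were lower and 1 higher at an unadjusted p under 0.05. The other lower members were the chemokine Ccl6 (-1.52 ± 0.56) and the membrane mucin Muc4 (-0.75 ± 0.27, and -0.41 with CAS 1 and SPI 4 both left out). The higher member was Clca1, a secreted protein of mucous epithelia, chosen after its values were seen. It had 2524, 1204 and 3579.7 on CAS and 7018, 7744, 1578 and 11117 on SPI, where SPI 4 lay inside the CAS range. Without CAS 1 the list median was 0.027, so its direction rested on that array.

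**Figure D1:**
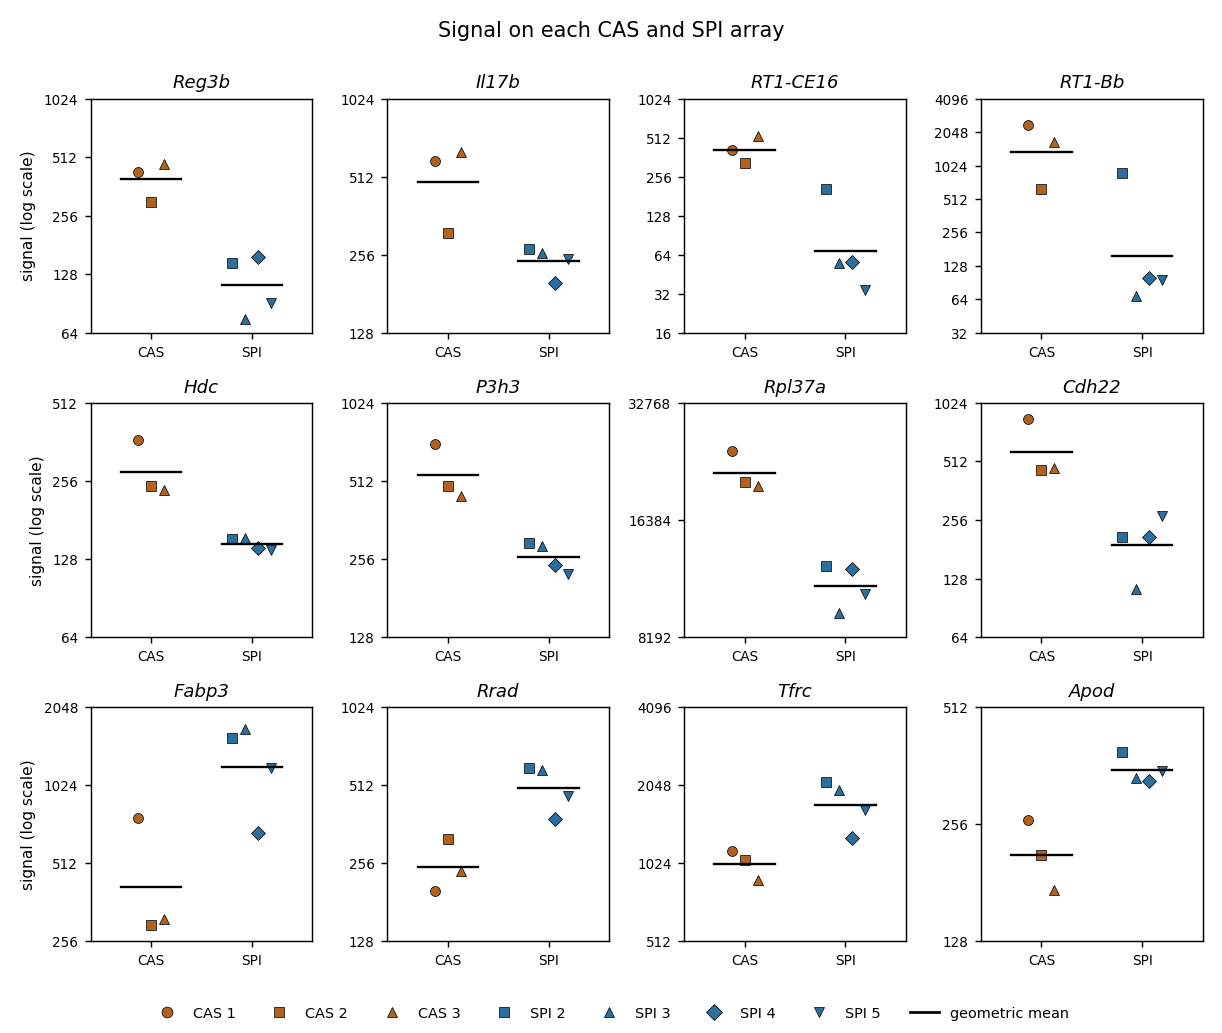
Signal of 12 named genes on each array, on a log scale that differs between panels; each symbol is 1 array and the black bar is the geometric mean of the 3 CAS or 4 SPI arrays. The groups do not overlap except for RT1-Bb, where SPI 2 lies at 876, and for Fabp3, where SPI 4 at 669 lies below CAS 1 at 769.

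Genes of antigen presentation by the major histocompatibility complex (MHC) were the list with the most extreme members. In rats these genes are named RT1, and they differ in sequence between animals more than most genes do. Class II molecules pair an alpha with a beta chain, carry peptides to the surface of macrophages, dendritic cells and B cells, and need the invariant chain Cd74 and the loading factor RT1-DM; the factor Ciita switches them on. Of 17 tested members, 3 were higher and 14 lower on SPI, with a median of -0.320, and 7 were lower and 0 higher at an unadjusted p under 0.05. The count of 7 became 10 without CAS 2 and 4 without CAS 3, and was 2 with CAS 1 and SPI 4 both left out, an alternative chosen after the data were seen.

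The class II chains share a short promoter sequence, the Y box, which the factor NF-Y binds, and it is shown here because the 4 chains that carry it differed in direction. The lines give bases 120 to 21 before the transcript start in RefSeq's annotation of the GRCr8 assembly, which comes from another strain than the rats studied. Capitals mark the Y box CTGATTGG and the core AACNGATG of the X box, searched on both strands.
RT1-Bb (beta chain, chr20:4604139-4604238, minus strand): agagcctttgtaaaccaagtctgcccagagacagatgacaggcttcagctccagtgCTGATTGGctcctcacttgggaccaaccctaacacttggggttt
RT1-Ba (alpha chain, chr20:4576937-4577036, plus strand): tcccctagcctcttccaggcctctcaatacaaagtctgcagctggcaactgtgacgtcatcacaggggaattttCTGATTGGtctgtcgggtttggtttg
RT1-Da (alpha chain, chr20:4515295-4515394, plus strand): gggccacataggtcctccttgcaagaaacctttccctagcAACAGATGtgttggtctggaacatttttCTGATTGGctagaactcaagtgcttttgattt
RT1-Db1 (beta chain, chr20:4560183-4560282, minus strand): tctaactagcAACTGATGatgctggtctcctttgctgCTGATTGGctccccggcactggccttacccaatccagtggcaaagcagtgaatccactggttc
The Y box started at bases -64, -46, -52 and -83 from the start in this order. It was in 3.5% of 33469 promoters of 300 bases, and the X box core, found in RT1-Da and RT1-Db1, in 2.58%. Neither was found in the promoter of RT1-DMa. A match describes letters and not a site in use.

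The chains with these promoters had the following signals. RT1-Bb had 2375, 624 and 1682 on CAS and 876, 69.0, 100.4 and 95.9 on SPI, a log2 difference of -3.13 ± 0.73. SPI 2 lay above CAS 2, while the other 3 SPI arrays lay far below every CAS array. A further tested probe set of RT1-Bb differed by 0.21, the other way, with overlapping groups. Both the size and the direction therefore rest on 1 probe set. RT1-Da had 4243, 1807 and 4277 on CAS and 1912, 1263, 932 and 1983 on SPI (-1.14 ± 0.37, and -0.72 with CAS 1 and SPI 4 both left out), and RT1-Db1 1379, 399 and 1107 and 586, 308, 337 and 542 (-0.99 ± 0.41). In both, CAS 1 and CAS 3 were the highest arrays and CAS 2 lay inside the SPI range. RT1-Ba went the other way, with 132, 349.8 and 1223 on CAS and 504, 746, 665 and 1358 on SPI (0.99 ± 0.55), and CAS 1, the highest array for RT1-Bb and RT1-Db1, was its lowest. RT1-Db1 and RT1-Ba were chosen after their values were seen, as were RT1-DMb, Cd74, B2m and Ciita.

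The partners of the class II chains showed smaller differences. RT1-DMa had 489, 341 and 538 on CAS and 284, 285, 266 and 289.6 on SPI (-0.67 ± 0.21), without overlap. RT1-DMb differed by -0.54 ± 0.18 and Cd74 by -0.73 ± 0.33, both with overlapping groups. Ciita, at 156, 192 and 175 on CAS and 255, 189.6, 205 and 139.5 on SPI, differed by 0.15 ± 0.23, within the spread. Among class I genes, which present peptides on nearly all cells, RT1-CE16 had 414, 326 and 527 on CAS and 204, 54.8, 56.1 and 33.9 on SPI (-2.61 ± 0.47, adjusted p = 0.292). Its groups did not overlap, and SPI 2 was the SPI array nearest to CAS, as for RT1-Bb. B2m, the chain common to all class I molecules, had 22044, 20792 and 24251 on CAS and 18968, 17511, 18325 and 20527 on SPI. Its groups did not overlap by a small margin, and the difference was -0.25 ± 0.12. Without SPI 2, RT1-CE16 (-3.14, adjusted p = 0.00232) and RT1-Bb (-3.96, adjusted p = 0.00659) passed the adjusted threshold in limma. No other setting tried gave either gene a call, and that of RT1-Bb holds for the 1 probe set only. This setting removes just the SPI array nearest to CAS in both genes, so the calls add no support.

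Markers of macrophages and other myeloid cells had the lowest median of all 40 lists. Of 18 tested members, 2 were higher and 16 lower, with a median of -0.638, and 6 were lower and 0 higher at an unadjusted p under 0.05. C1qa, a chain of the first complement component made by tissue macrophages, had 2873, 968 and 2533 on CAS and 805, 476, 920.5 and 1619.6 on SPI (-1.14 ± 0.42). C1qc, its partner chain, had 1657, 644 and 1751 and 646, 286, 555 and 963 (-1.14 ± 0.45). Ccl6, a chemokine of macrophages, had 1684, 488 and 2115 and 465, 247, 332 and 814 (-1.52 ± 0.56). Cd68, a lysosomal protein, had 666, 393 and 803 and 382, 376, 277 and 408 (-0.73 ± 0.25). In these 4 genes CAS 1 and CAS 3 were the highest of the 7 arrays, while CAS 2 lay inside the SPI range. Over the list, 11 of 18 members were highest on CAS 3 and 4 on CAS 1, and 9 were lowest on SPI 4 and 5 on SPI 3. The mean log2 signal of the list was 10.35, 9.54 and 10.52 on CAS and 9.59, 9.26, 9.21 and 10.05 on SPI, with CAS 2 below SPI 2 and SPI 5. The count of 6 members was 12 without CAS 2, 11 without SPI 5, 1 without CAS 1 or SPI 3, and 0 without CAS 3 or with CAS 1 and SPI 4 both left out. In RNA of whole tissue, fewer cells of a type and less RNA per cell cannot be told apart.

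**Figure D2:**
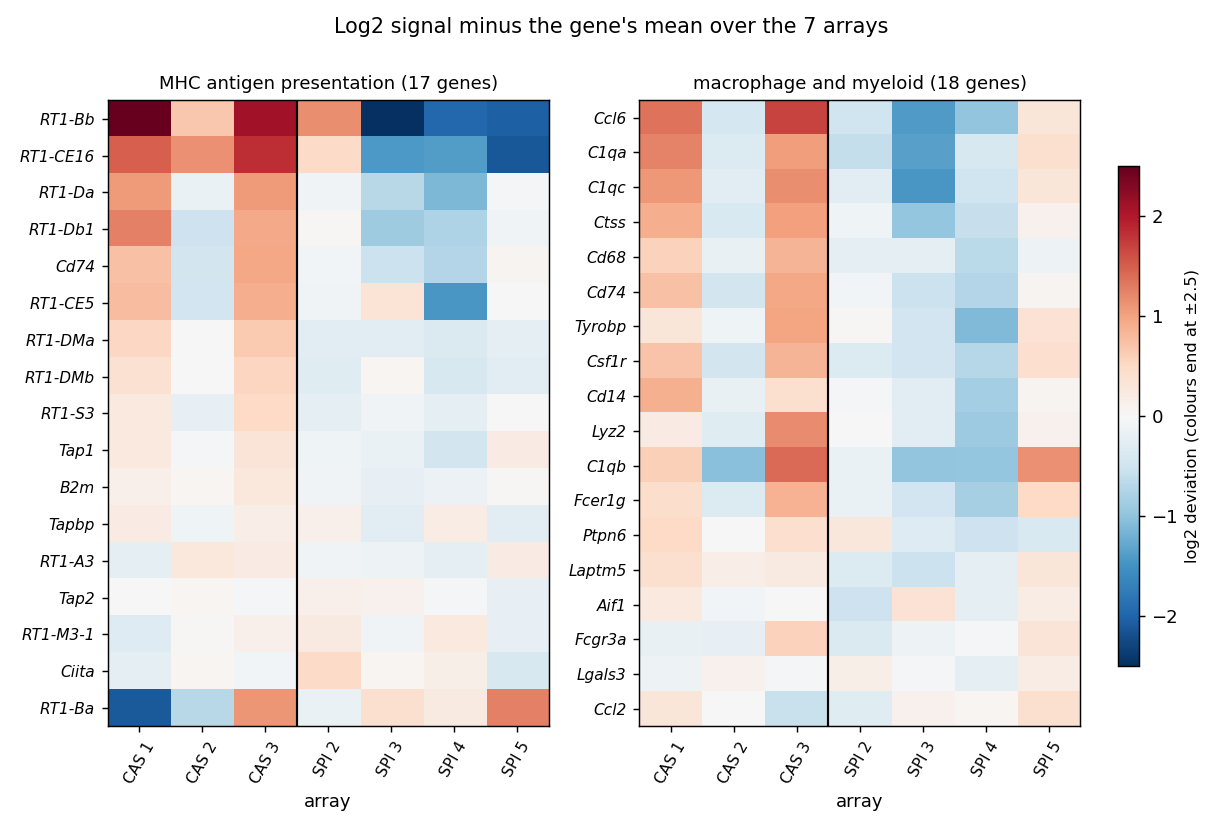
Log2 signal of each tested gene minus its mean over the 7 arrays, for the 17 genes of antigen presentation and the 18 macrophage genes, sorted by the SPI minus CAS difference; red is above and blue below the mean, and the vertical line separates CAS from SPI. CAS 1 and CAS 3 are red for most upper rows, CAS 2 is near or below 0 for most macrophage rows, and RT1-Ba runs against the other class II chains.

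Genes of lymphocytes and of leukocytes in general gave a smaller list. Of 8 tested lymphocyte list members, 2 were higher and 6 lower (median -0.414), with 3 lower and 0 higher at an unadjusted p under 0.05. Rac2, a small GTPase of blood cells, had 654, 558 and 964 on CAS and 359, 381, 228 and 459 on SPI (-1.03 ± 0.26). Ptprc, the CD45 phosphatase of all leukocytes, had 384, 216 and 477 and 209, 179, 109 and 202 (-1.01 ± 0.30), and a dim further probe set differed by -2.59. The groups did not overlap for either gene. Coro1a, an actin regulator of leukocytes, differed by -0.73 ± 0.32, or by -0.34 without CAS 3. Genes that define T cells (Cd3d, Cd3e, Cd3g, Cd4 and Cd8a) were below the filter, so the list speaks for leukocytes in general. The count of 3 was 1 with CAS 1 and SPI 4 both left out. The median was -0.193 without CAS 3, -0.196 without SPI 4 and -0.241 without both CAS 1 and SPI 4. With the lowest 60% of probe sets left out, 4 members were tested, 2 higher and 2 lower, with a median of 0.008, so the direction was lost.

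Mast cell genes had 1 member higher and 8 lower of 9 tested (median -0.468), with 3 lower and 0 higher at an unadjusted p under 0.05. Hdc, which makes histamine, had 368, 245 and 236 on CAS and 152, 154, 141 and 138 on SPI (-0.92 ± 0.21, adjusted p = 0.582), without overlap. Tpsab1, a tryptase of mast cell granules, had 593, 224 and 499.6 and 41.6, 103, 48.5 and 488 (-2.01 ± 0.74), where SPI 5 lay at the level of CAS 3 and the other 3 SPI arrays below every CAS array. Ms4a2, a chain of the IgE receptor, differed by -0.75 ± 0.31, while a dim further probe set differed by 1.19. The chymase Cma1 had 2825, 1061 and 1289.5 and 979.7, 881, 997 and 1578, with an interval of the difference of -1.33 to 0.25, and a difference of -0.54 that was -0.12 without CAS 1 and -0.82 without CAS 2. On CAS 1, 6 of the 9 genes had their highest signal. The list median was -0.822 without CAS 2 and -0.722 without SPI 5. Without CAS 1 the list had 3 members higher and 6 lower (median -0.116), and 1 was lower at an unadjusted p under 0.05, as was the case without CAS 3 or SPI 2.

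Interferon response genes, which answer to viral and other danger signals, had 7 members higher and 17 lower of 24 tested (median -0.190), and 3 were lower and 0 higher at an unadjusted p under 0.05. Irf7, a transcription factor that amplifies the response, had 2610.0, 1658 and 2648 on CAS and 1109.8, 1343, 1644 and 1643 on SPI (-0.67 ± 0.19), without overlap. Gbp2, a GTPase induced by interferon, had 1299, 1108 and 1222 and 751, 1006, 878 and 1164 (-0.36 ± 0.17), where SPI 5 lay inside the CAS range. Mx1, an antiviral GTPase, had 228, 161 and 396 and 188, 149, 152 and 144 (-0.64 ± 0.27, and -0.29 without CAS 3). Usp18, a brake on interferon signalling, differed by -0.43 ± 0.25. The count of 3 fell to 1 without CAS 1, CAS 3 or SPI 3, and was 5 without CAS 2. The promoters of Irf7 and Gbp2 are shown because these members carry an interferon response element, GAAANNGAA, which lies on the opposite strand in both, its complement in capitals.
Irf7 (chr1:205800044-205800143, minus strand): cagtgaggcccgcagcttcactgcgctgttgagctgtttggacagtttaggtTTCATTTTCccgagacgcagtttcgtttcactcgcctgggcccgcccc
Gbp2 (chr2:234005607-234005706, plus strand): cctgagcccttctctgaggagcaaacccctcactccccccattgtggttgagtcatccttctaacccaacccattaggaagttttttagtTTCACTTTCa
The element started at bases -68 and -30 from the start. It was in 9.71% of the 33469 promoters, also in that of Tap1 (-0.30), and was not found in that of Mx1.

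Milk genes were found on both sides. Of 13 tested members, 7 were higher and 6 lower (median 0.029), with 1 higher and 2 lower at an unadjusted p under 0.05. The split rested on single arrays: without CAS 2 there were 4 higher and 9 lower (median -0.195), without CAS 1 9 and 4 (median 0.302), and without SPI 4 10 and 3 (median 0.264). With CAS 1 and SPI 4 both left out there were 9 higher and 4 lower (median 0.440), with 5 higher and 0 lower at an unadjusted p under 0.05 in limma. Lalba, the alpha-lactalbumin of lactose synthesis, had 15784, 8299.5 and 11895 on CAS and 9218, 6463, 5707 and 6462 on SPI. The log2 difference was -0.76 ± 0.22 (95% interval -1.23 to -0.29, adjusted p = 0.756), and SPI 2 overlapped with CAS 2. Xdh, which helps to enclose the milk fat globule, had 3366, 2414 and 3473 and 2442, 2056, 1464 and 2188 (-0.60 ± 0.20). Wap, the whey acidic protein, had 1489, 894 and 1424 and 1079, 1112, 574 and 612 (-0.62 ± 0.33). For Lalba and Xdh, 3 SPI arrays lay below every CAS array, and SPI 4 was the lowest of the 7. With CAS 1 and SPI 4 both left out, the differences were -0.45 for Lalba, -0.38 for Xdh and -0.32 for Wap.

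For the caseins no direction was clear, and whether they differed from Lalba, Xdh and Wap was not tested. Csn1s1 had 20137, 9120.2 and 15828 on CAS and 21008, 22285, 9866 and 18909 on SPI, with a log2 difference of 0.27 ± 0.28. Csn2 had 14829, 2330.1 and 6057 and 9819, 8137, 2245 and 6787 (-0.01 ± 0.55), Csn3 differed by -0.08 ± 0.38, and Glycam1, a mucin of milk, by 0.03 ± 0.55. In all 4 genes CAS 1 was the highest and CAS 2 the lowest CAS array, and SPI 4 was the lowest SPI array. The 95% interval of Csn2 reached from -1.20 to 1.18, and with CAS 1 and SPI 4 both left out its difference stood at 1.12. The direction of the caseins was therefore not resolved by these arrays. Mfge8, a glycoprotein of the milk fat globule, had 3596, 3809 and 3952 on CAS and 4998, 5034, 4345 and 4786 on SPI (0.34 ± 0.14), with every SPI array above every CAS array. The promoters of Csn1s1 and Csn2 are shown because they carry the Stat site TTCNNNGAA, in capitals, bound by the prolactin-driven factor Stat5. It was not found in those of Lalba and Wap, and that of Csn3 was not searched. The search reached 250 bases before the start, so sites further away were not seen. A match describes letters and not a site in use.
Csn1s1 (chr14:20638870-20638969, minus strand): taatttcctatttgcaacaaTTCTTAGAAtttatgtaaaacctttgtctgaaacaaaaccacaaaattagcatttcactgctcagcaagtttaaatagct
Csn2 (chr14:20601704-20601803, plus strand): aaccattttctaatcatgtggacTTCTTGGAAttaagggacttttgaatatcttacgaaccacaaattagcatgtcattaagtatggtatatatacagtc
The site started at bases -100 and -97 from the start and was in 8.87% of the 33469 promoters of 300 bases.

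**Figure D3:**
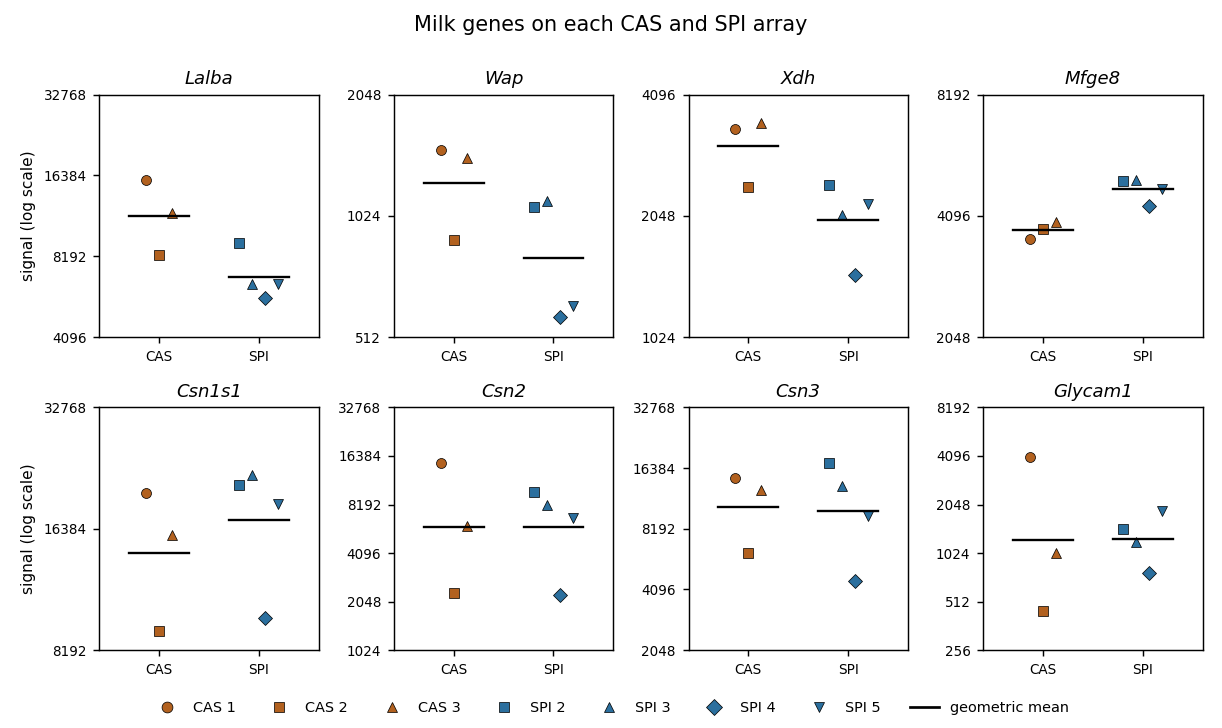
Signal of 8 milk genes on each array, on a log scale that differs between panels; each symbol is 1 array and the black bar is the geometric mean of the 3 CAS or 4 SPI arrays. Lalba, Wap and Xdh have lower bars on SPI, the caseins and Glycam1 have overlapping groups with CAS 2 and SPI 4 low, and Mfge8 is higher on all 4 SPI arrays.

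Prolactin, acting through its receptor Prlr and Stat5, is what switches milk genes on. Prlr had 2461, 2512 and 3475 on CAS and 3325, 1832, 1357 and 921 on SPI (-0.74 ± 0.32, and -0.46 without SPI 5). SPI 2 lay inside the CAS range and the other 3 SPI arrays below it. A further probe set of Prlr differed by -0.67 and a dim one by -0.01. Stat5a, with 829.7, 809 and 889.8 and 977, 878, 652 and 669, differed by -0.11 ± 0.17, within the spread, and the feedback inhibitor Socs2 by 0.26 ± 0.22. Of the 11 tested members of the pathway, 5 were higher and 6 lower (median -0.013), and Prlr was the 1 at an unadjusted p under 0.05.

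Luminal epithelial markers had 2 members higher and 13 lower of 15 tested (median -0.300), with 4 lower and 0 higher at an unadjusted p under 0.05, Prlr among them. Cldn4, a claudin of tight junctions, had 4136, 2276 and 1820.1 on CAS and 2016, 1361, 1191 and 1273 on SPI (-0.85 ± 0.25, and -0.51 without CAS 1). Cdh1, the cadherin that joins epithelial cells, had 873, 630.1 and 654 and 545, 395, 229 and 659 (-0.74 ± 0.31, and -0.45 without SPI 4). Epcam, an adhesion molecule, had 3779, 1834 and 2762 and 2235, 2039.6, 1266 and 1932 (-0.55 ± 0.24, and -0.30 without CAS 1). SPI 4 was the lowest array for 12 of the 15 members, and it had the highest actin ratio. With the actin ratio as a covariate, the list had 2 members higher and 13 lower (median -0.277). Of these, 4 were lower at an unadjusted p under 0.05 in limma. Array quality weights gave 4 higher and 11 lower (median -0.144), and the replicate number as a block 7 and 8 (median -0.04). The cause of the low values on SPI 4 was not tested. Without SPI 4 the list had 7 members higher and 8 lower (median -0.082), and without CAS 1 5 higher and 10 lower (median -0.071). With both left out, it had 9 higher and 6 lower, with a median of 0.196, so the direction turned. Basal and myoepithelial markers had 8 higher and 6 lower of 14 (median 0.122), and 1 higher at an unadjusted p under 0.05, the myosin kinase Mylk (0.34 ± 0.14). The smooth muscle myosin Myh11 differed by 0.39 ± 0.26 and the integrin Itgb4 by 0.27 ± 0.18. With CAS 1 and SPI 4 both left out, 13 of the 14 were higher and 5 were so at an unadjusted p under 0.05, and without CAS 2 there were 7 higher and 7 lower.

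Steroid hormone receptors include the estrogen receptors, which isoflavones bind. The estrogen receptors Esr1 and Esr2 and the progesterone receptor Pgr were below the filter on dim probe sets. Esr1 had signals of 9.5 to 12.6 on CAS and 13.2 to 15.1 on SPI, Esr2 of 4.7 to 10.9 and 7.0 to 26.7, and Pgr of 94.1 to 186 and 86.6 to 149. The lowest tested mean signal was 162, so these receptors were not among the tested probe sets. Their log2 differences at these dim signals were 0.355 ± 0.397 for Esr1, 1.256 ± 0.593 for Esr2 and -0.366 ± 0.313 for Pgr. For Esr1 every SPI array lay above every CAS array, though the difference was smaller than its SE. The groups overlapped for Esr2 (unadjusted p = 0.0559, limma) and for Pgr. Whether these receptors differed between the diets was therefore not resolved. Of the 9 tested members of the list, 4 were higher and 5 lower (median -0.001), and 0 were at an unadjusted p under 0.05 in limma. The retinoic acid receptor Rara (-0.65 ± 0.41) and the mineralocorticoid receptor Nr3c2 (0.23 ± 0.19) were within the spread. Genes that estrogen receptors drive, with their cofactors, had 9 members higher and 7 lower of 16 (median 0.034), and 1 was higher at an unadjusted p under 0.05. This was Igfbp4, which binds insulin-like growth factors, with 1675, 1837 and 1404 on CAS and 1784, 2443, 2880.5 and 2087 on SPI (0.47 ± 0.21). Areg, the ligand by which estrogen drives duct growth, had 598, 543 and 566 on CAS and 956, 539.7, 674 and 698 on SPI (0.30 ± 0.21), with SPI 3 just below every CAS array and the other 3 SPI arrays above them. The cofactor Ncor1 differed by 0.15 ± 0.12, and a further probe set by -0.13.

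Growth factor and patterning pathways lay near the median of all genes. Ligands and receptors of the EGF family had 3 members higher and 7 lower of 10 (median -0.039), with 0 at an unadjusted p under 0.05, and Ereg, a ligand with 220.2, 211 and 226 on CAS and 154, 203, 146 and 166 on SPI (-0.40 ± 0.23), did not overlap. The insulin-like growth factor axis had 5 higher and 5 lower of 10 (median 0.074), with Igfbp4 the 1 member at an unadjusted p under 0.05, Igf1 at -0.26 ± 0.20 and Igf2 at 0.38 ± 0.26. Wnt genes had 10 higher and 8 lower of 18 (median 0.049), and 1 was lower at an unadjusted p under 0.05: Dact2, an inhibitor of Wnt signals, with 701, 203 and 299.6 on CAS and 158, 171, 106 and 181 on SPI (-1.21 ± 0.34, and -0.71 without CAS 1). Notch genes had 5 higher and 5 lower of 10 (median -0.011). The Notch target Hes1 had 904, 996 and 888 on CAS and 1418, 948, 1485 and 1414 on SPI (0.48 ± 0.17), where SPI 3 lay inside the CAS range and the other 3 SPI arrays above it. Activin and TGF-beta genes had 12 higher and 10 lower of 22 (median 0.028), and Inhbb, a subunit of activin, had 539, 567 and 555 and 454, 314, 294 and 492 (-0.55 ± 0.21), without overlap. Tgfb3 differed by -0.51 ± 0.28, within the spread. With arrays centred on the median, the EGF and Notch medians were 0.033 and 0.061, so the sign of both depended on the scaling.

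DNA replication and cell cycle genes had the highest median of all 40 lists. Of 25 tested members, 23 were higher and 2 lower on SPI (median 0.250), with 3 higher and 0 lower at an unadjusted p under 0.05. Rfc3, which loads the replication clamp, had 196, 188 and 207 on CAS and 399.6, 334, 225 and 297 on SPI (0.64 ± 0.20), without overlap. Mcm4, a subunit of the replication helicase, had 381, 412 and 514 and 509.6, 618, 656 and 671 (0.50 ± 0.16), where SPI 2 lay just inside the CAS range. Stmn1, a microtubule regulator of dividing cells, had 1986, 1847 and 2389.8 and 2759, 3474, 2813 and 2640.0 (0.49 ± 0.17), without overlap, and the helicase subunit Mcm5 differed by 0.40 ± 0.19. For 15 of the 25 genes SPI 2 was the highest array, and for 11 CAS 2 and for 8 CAS 1 was the lowest. The proliferation marker Mki67, chosen after its values were seen, had 539, 531 and 778 and 671, 874, 905 and 648 (0.34 ± 0.25), with overlapping groups. The count of 3 was 10 without CAS 3, 6 without SPI 4 and 2 without CAS 2, and between 19 and 23 members were higher under each array left out.

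Targets of p53 and apoptosis genes had 7 members higher and 12 lower of 19 (median -0.024), a split that turned to 15 and 4 with arrays centred on the median. Cdkn1a, the p21 inhibitor of the cell cycle, had 2553, 1614 and 1188 on CAS and 1714, 4428, 5969.9 and 2359.5 on SPI (0.92 ± 0.38). SPI 3 and SPI 4 were its highest arrays, SPI 2 and SPI 5 lay inside the CAS range, and a further probe set differed by 0.65. Rprm, a p53 target that stops the cycle, had 285, 219 and 415 and 141, 77.2, 157 and 111 (-1.33 ± 0.30), without overlap, so these members stood on opposite sides. Mapkapk3, a stress kinase, had 338, 335 and 515 and 198, 253, 124 and 104 (-1.28 ± 0.29), also without overlap.

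Among lipid genes, the largest difference was that of a fatty acid carrier. Fabp3, the fatty acid binding protein of muscle and mammary gland, had 769, 296 and 312 on CAS and 1562, 1695, 669 and 1192 on SPI, a log2 difference of 1.54 ± 0.38 (95% interval 0.72 to 2.36, adjusted p = 0.582). Only SPI 4 overlapped with CAS 1. With CAS 1 and SPI 4 both left out, Fabp3 was at 2.27 (adjusted p = 0.0441, limma), the 1 call of that setting. This alternative was chosen after the data were seen and removes just the arrays that overlap, so the call adds no support. Fabp5, an epidermal relative, had 5739, 4218 and 2738 and 5273, 5552, 5242 and 6268 (0.46 ± 0.20), with CAS 1 above 3 of the 4 SPI arrays, and differed by 0.71 without CAS 1 and 0.18 without CAS 3. The list of fatty acid oxidation and PPAR targets that holds both had 8 members higher and 13 lower of 21 (median -0.115), with these 2 higher and 0 lower at an unadjusted p under 0.05. Fads2, the delta-6 desaturase of polyunsaturated fatty acids, had 160.4, 143 and 125 and 272, 208, 163 and 280.0 (0.67 ± 0.24), without overlap. It was the 1 member at an unadjusted p under 0.05 of the list of fatty acid and triglyceride synthesis, which had 9 higher and 8 lower of 17 (median 0.023). Thrsp, a regulator of lipid synthesis, had 913, 512 and 627 and 1408, 969, 573 and 1034 (0.51 ± 0.27), or 0.33 without CAS 2 and 0.32 without SPI 2, and its further probe sets differed by 0.50 and -0.08. Cholesterol genes had 7 higher and 8 lower of 15 (median -0.008), with 0 at an unadjusted p under 0.05. Adipocyte markers had 8 higher and 6 lower of 14 (median 0.088). Cfd, the adipsin of fat cells, was at -0.76 ± 0.42 (-0.49 without CAS 1) and Fabp4, their main fatty acid carrier, at 0.26 ± 0.13, both with overlapping groups, and Gpd1 at -0.37 ± 0.17 without overlap.

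Carrier and iron genes were spread to both sides. Tfrc, the transferrin receptor that imports iron, had 1144, 1051 and 884 on CAS and 2111, 1964, 1285 and 1647 on SPI (0.75 ± 0.19), without overlap, while a further probe set differed by 0.12. Apod, a lipid carrier of the lipocalin family, had 263, 214 and 174 and 393, 337, 331 and 351 (0.72 ± 0.17). Slc5a6, which imports biotin and pantothenate, had 174, 244 and 243 and 335, 386, 270.4 and 434 (0.69 ± 0.21). Neither of these overlapped. Steap3, an iron reductase, was at -0.61 ± 0.24, or -0.40 without SPI 3, and Heph, an iron oxidase chosen after its values were seen, at -0.44 ± 0.19. Of 11 tested members of the list of iron, zinc and carrier proteins, 6 were higher and 5 lower (median 0.084), with 3 higher and 2 lower at an unadjusted p under 0.05. The 2 lower ones became 0 without CAS 1, CAS 3 or SPI 3, and the median was -0.188 without CAS 3 and -0.011 without SPI 4.

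Enzymes of serine, one-carbon and amino acid stress metabolism had 14 members higher and 7 lower of 21 (median 0.155), with 0 at an unadjusted p under 0.05 in limma. Phgdh, the first enzyme of serine synthesis, had 195, 142 and 45 on CAS and 355, 165, 123 and 217 on SPI, a difference of 0.89 ± 0.45 that was 0.26 without CAS 3. Psat1, the next enzyme, was at 0.35 ± 0.22, and Cbs, which draws homocysteine toward cysteine, at 0.39 ± 0.18. Chaperones of the endoplasmic reticulum had 12 higher and 8 lower of 20 (median 0.066). Herpud1, a membrane protein of their degradation pathway, had 1173, 903 and 766 and 1168, 1033, 2119.8 and 1089.5 (0.47 ± 0.24), with SPI 4 alone above CAS 1, and differed by 0.23 without SPI 4. Genes of xenobiotic and steroid metabolism had 9 higher and 7 lower of 16 (median 0.048), and Hsd11b2, which inactivates glucocorticoids, was the 1 at an unadjusted p under 0.05. It had 104, 378 and 147 on CAS and 218, 448, 444 and 350.0 on SPI (0.97 ± 0.38), or 0.57 without CAS 1 and 1.51 without CAS 2. Ahr, the receptor for many plant and environmental compounds, had 193, 184 and 203 and 169.9, 127, 152 and 151 (-0.37 ± 0.21), without overlap. Redox defence genes had 14 higher and 11 lower of 25 (median 0.017), with 0 at an unadjusted p under 0.05, and Cat, the catalase, was at -0.27 ± 0.13 without overlap.

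The stroma held both directions among the markers of 1 cell type. Fibroblast markers had 6 members higher and 17 lower of 23 (median -0.348), with 2 higher and 6 lower at an unadjusted p under 0.05. Pi16, a protease inhibitor of fibroblasts around vessels, had 1433, 849 and 714 on CAS and 350.1, 296, 336 and 858 on SPI (-1.20 ± 0.33), with SPI 5 inside the CAS range. Clec3b, a plasminogen-binding lectin, had 182, 389 and 453 and 189.8, 103, 201 and 101 (-1.17 ± 0.34). The higher pair was Mgp, the matrix protein that hinders calcification, with 9756, 13234 and 10371 and 16318, 16350.2, 16384 and 15404 (0.55 ± 0.14), and Vim, the intermediate filament of stromal cells, with 14594, 16113 and 12117 and 17952, 18801, 20975 and 18374 (0.42 ± 0.11). Neither Mgp nor Vim overlapped between the diets. CAS 1 was the highest array for 15 of the 23 genes and SPI 3 the lowest for 12. Without CAS 1 the list had 9 higher and 14 lower (median -0.098) and 2 lower at an unadjusted p under 0.05, and without CAS 2 or SPI 5 it had 10.

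Collagen and matrix genes had 17 members higher and 21 lower of 38 (median -0.077), with 1 higher and 6 lower at an unadjusted p under 0.05. The lower count was 2 with arrays centred on the median, without CAS 1 and without SPI 3, 3 without SPI 2 and 10 without SPI 5. P3h3, a collagen prolyl hydroxylase, had 710.1, 490.3 and 449.7 on CAS and 294, 288, 243 and 223 on SPI (-1.05 ± 0.19, adjusted p = 0.292). Fndc1, a secreted fibronectin-domain protein, had 2502, 509.9 and 1012 and 390.2, 294, 387 and 503 (-1.49 ± 0.39, and -0.89 without CAS 1). P4ha2, another collagen prolyl hydroxylase, was at -0.40 ± 0.17, and the other 3 lower members were Fn1, Col5a2 and Col5a3, chosen after their values were seen, at -0.54, -0.43 and -0.68. Mamdc2, a proteoglycan of the matrix, went the other way, with 527, 545 and 379.6 and 610.0, 851, 793 and 717 (0.63 ± 0.18). P3h3, Fndc1 and Mamdc2 did not overlap between the diets. Col1a1, the main collagen chain, chosen after its values were seen, had 20511, 9492 and 12589 and 9177, 5941, 11983 and 14814, within the spread. Metalloproteinases and their inhibitors had 6 higher and 10 lower of 16 (median -0.028), and the inhibitor Timp3 was at 0.37 ± 0.14 by its brightest probe set and at 0.14, 0.05 and 0.31 by 3 others.

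Vessel and nerve markers lay above the median of all genes. All 20 tested endothelial and pericyte genes were higher on SPI (median 0.175), with 1 at an unadjusted p under 0.05, and 0 of them without overlap. Cldn5, the claudin of endothelial junctions, had 939, 1326 and 1116 on CAS and 1306, 1629.7, 2124 and 1494 on SPI (0.53 ± 0.18, and 0.27 with CAS 1 and SPI 4 both left out), and the clotting factor carrier Vwf 2185, 3405 and 2421 and 3166, 3632, 3889 and 3119.5 (0.39 ± 0.20). CAS 1 was the lowest array for 14 of the 20 genes. At that threshold the count was 5 without CAS 2 and 0 without CAS 1. Without CAS 1 the count was 14 higher and 6 lower (median 0.056), and with CAS 1 and SPI 4 both left out 11 and 9 (median 0.028). Schwann cell and nerve genes had 7 higher and 2 lower of 9 (median 0.152), with 2 higher at an unadjusted p under 0.05. Scn7a, a sodium channel of Schwann cells and nerve, had 258, 551 and 272 and 579, 844, 659 and 425 (0.85 ± 0.27), with SPI 5 inside the CAS range. Mbp, a myelin protein, had 366, 277 and 180.2 and 384, 451, 406 and 486 (0.71 ± 0.23, and 0.43 without CAS 3), without overlap, while a dim further probe set differed by -0.35. The mean of this list was the 1 cell type mean without overlap, at 9.02, 9.13 and 9.0 on CAS and 9.24, 9.39, 9.31 and 9.20 on SPI.

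**Figure D4:**
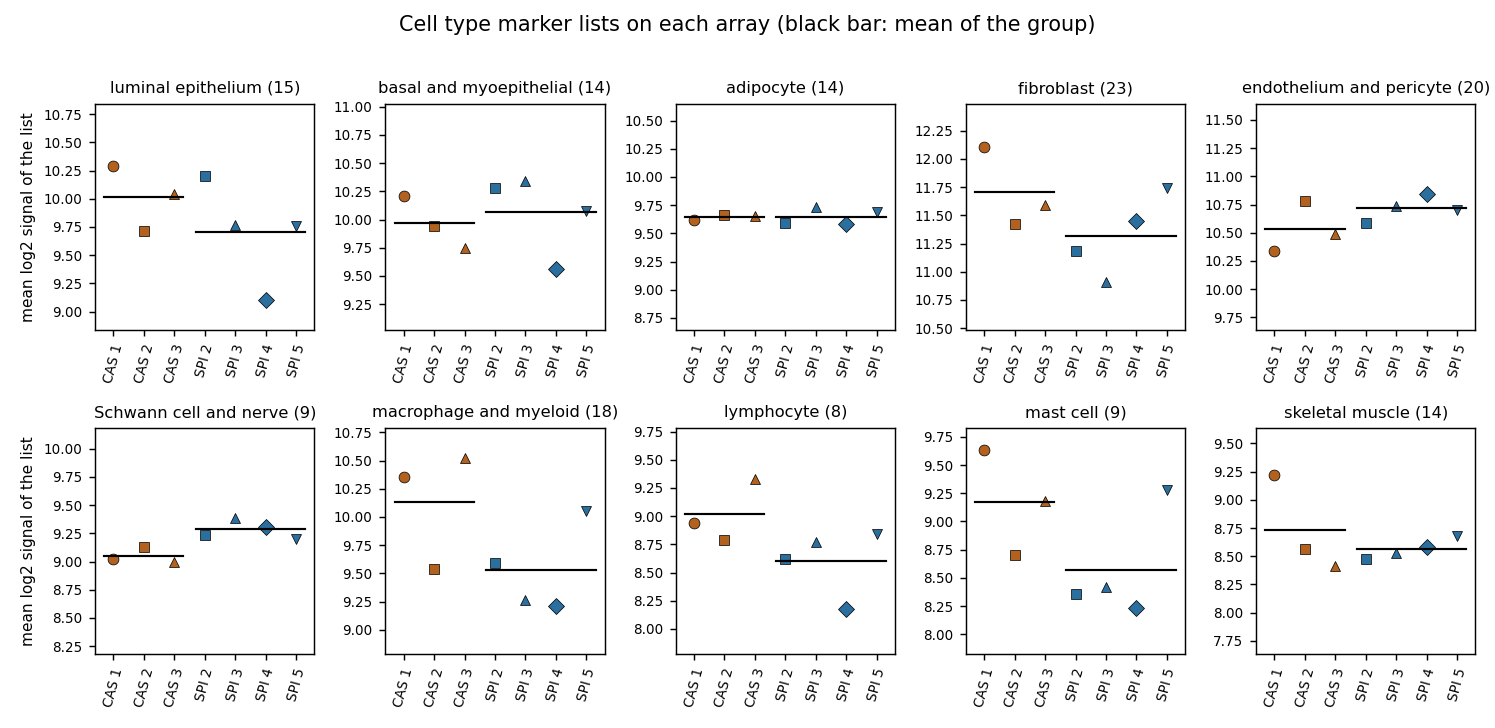
Mean log2 signal of the tested markers of 10 cell types on each array, with the number of markers in parentheses; the vertical axes span 2 log2 units each and black bars are group means. CAS 1 is highest for luminal, fibroblast, mast cell and muscle lists and lowest for endothelium, SPI 4 is lowest for luminal, basal, macrophage, lymphocyte and mast cell lists, and the Schwann cell list alone has no overlap.

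Genes of the skeletal muscle list lay on both sides. Acta1, the actin of skeletal fibres, had 1731, 139 and 259 on CAS and 101, 32.3, 100.3 and 204 on SPI (-2.14 ± 0.73, and -1.07 without CAS 1). CAS 1 was the highest array for 7 of the 14 tested members of the list, and the median of -0.253 became 0.026 without it. Rrad, a small GTPase of muscle, had 199.6, 319 and 239.6 and 595, 588, 379.9 and 464 (1.01 ± 0.21, adjusted p = 0.568). Dmpk, a kinase of muscle, had 871, 1154 and 802 and 1504, 1833, 1248 and 1456 (0.69 ± 0.17), and Jph2, which ties membranes for calcium release, 584, 566 and 624 and 796, 1064, 1021 and 785 (0.62 ± 0.17). These 3 genes did not overlap and made up, with Des, chosen after its values were seen (0.47 ± 0.17), the 4 members that were higher at an unadjusted p under 0.05. Outside the list, Ppp1r14a, an inhibitor of smooth muscle myosin phosphatase, had 454, 771 and 559 and 878, 1286, 1145 and 832 (0.81 ± 0.21), and the small heat shock protein Hspb1 3397, 4065 and 3380.4 and 4815, 5298, 6963 and 4789 (0.58 ± 0.15), both without overlap. Red cell genes had 3 lower of 3 tested, the haemoglobin chain Hbb at -0.04 ± 0.25 and the heme enzyme Alas2 at -0.18 ± 0.26, which stood at 0.14 and 0.06 without SPI 3.

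Large housekeeping groups lay slightly above the median of all genes. Cytosolic ribosomal protein genes had 28 members higher and 3 lower of 31 (median 0.088), respiratory chain genes 38 and 8 of 46 (median 0.089), and proteasome genes 24 and 4 of 28 (median 0.086). With quantile normalization these medians were 0.029, 0.039 and 0.058. In the first 2 lists 0 members were higher at an unadjusted p under 0.05, and in the proteasome list 1 was, the ATPase subunit Psmc4 (0.38 ± 0.15), without overlap. Against its list, the ribosomal protein gene Rpl37a had 24589.7, 20488 and 20009 on CAS and 12456, 9422, 12234 and 10563 on SPI, a difference of -0.96 ± 0.21 (adjusted p = 0.582). Every SPI array lay far below every CAS array for Rpl37a, and the next members, Rps3 (0.21 ± 0.14), Rps29 (0.20 ± 0.10) and Rpl5 (0.16 ± 0.10), lay above 0.

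Clock and immediate early genes showed no common direction. Clock genes had 5 members higher and 5 lower of 10 (median -0.035), and the core activator Bmal1 had 327, 307 and 338 on CAS and 310.3, 245, 153 and 202 on SPI (-0.56 ± 0.21, and -0.37 with CAS 1 and SPI 4 both left out), the 1 member at an unadjusted p under 0.05. Immediate early genes, which respond to handling and growth signals within minutes to hours, had 10 higher and 13 lower of 23 (median -0.024). Egr3 had 304, 347 and 248 and 192, 242, 153 and 232 (-0.56 ± 0.20), without overlap, and Klf4 was at -0.38 ± 0.15.

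Further genes that met the naming rule, an unadjusted p under 0.01 without overlap, belonged to none of these groups. On the lower side, Cdh22, a cadherin of nerve tissue, had 842, 461 and 476 on CAS and 209.7, 113, 210.0 and 267 on SPI (-1.58 ± 0.30). Coro2b, an actin-binding coronin, had 567, 332 and 402 and 216, 255, 234 and 187 (-0.93 ± 0.21). Plet1, a surface protein of epithelial progenitors, had 808, 736 and 660.1 and 588, 462, 304 and 326 (-0.85 ± 0.22). On the higher side, Rab3d, a GTPase of secretory granules, had 326, 270.0 and 319 and 443, 569, 429 and 559 (0.71 ± 0.18). Bcr, a kinase and GTPase regulator, had 6704, 7910.2 and 3742 and 8583, 10087, 9762 and 9492 (0.70 ± 0.21, and 0.38 without CAS 3), and the transporter gene Slc22a23 184, 189.6 and 177 and 259, 309, 271 and 244 (0.55 ± 0.17). In all, 19 genes were higher and 38 lower by this rule.

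**Figure D5:**
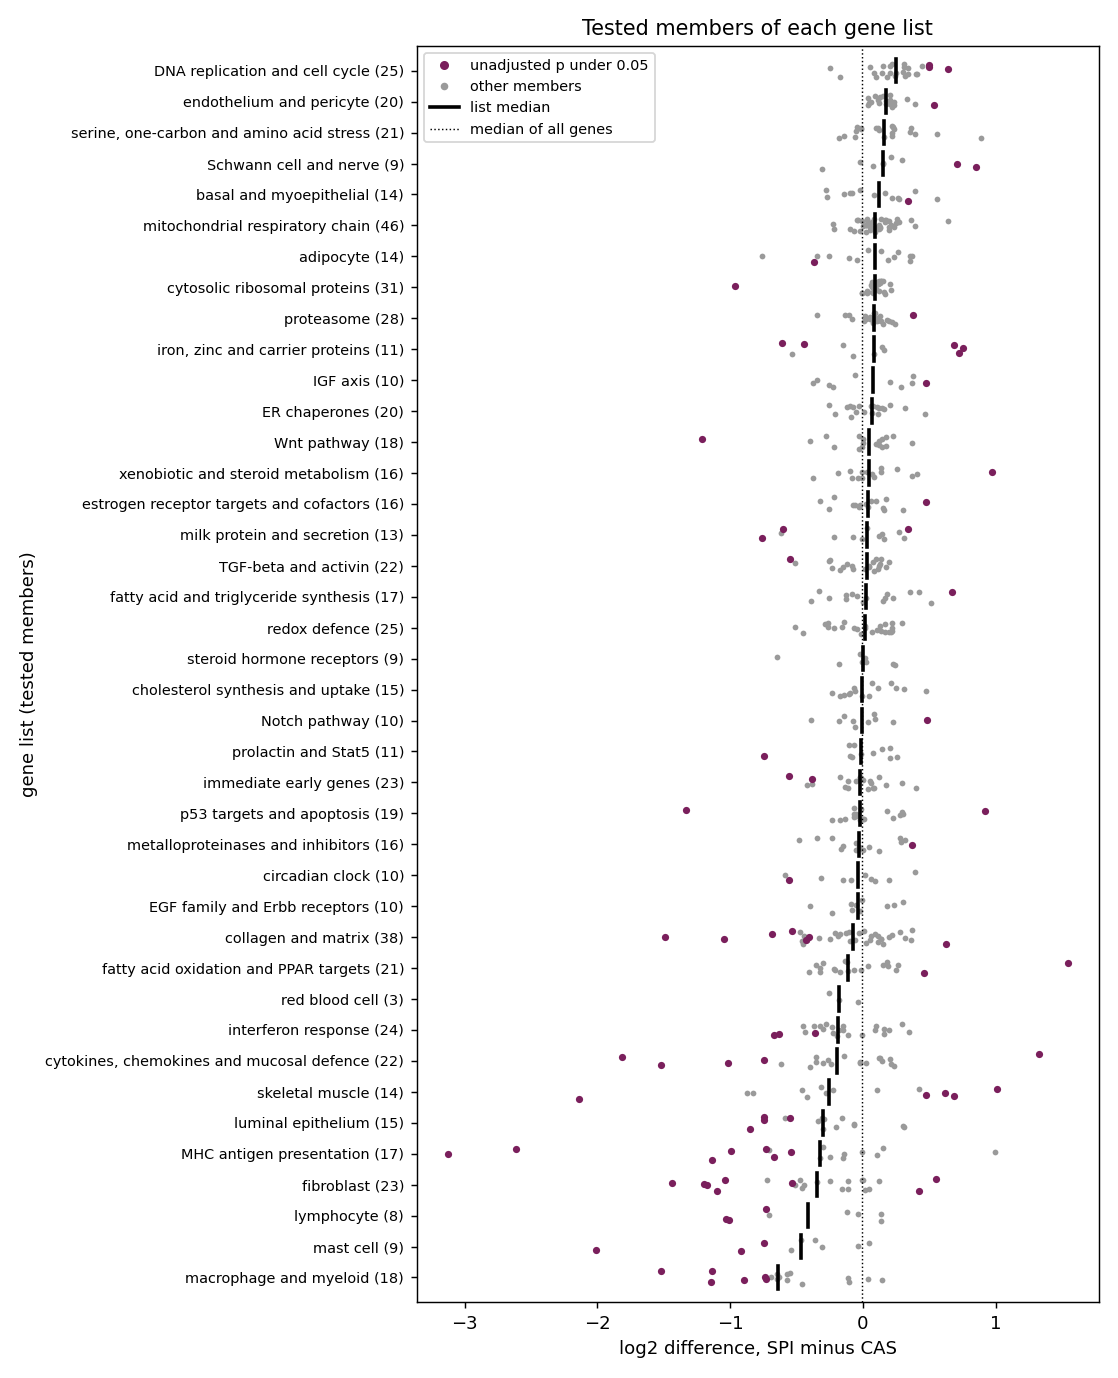
Log2 difference, SPI minus CAS, of every tested member of the 40 gene lists, sorted by list median, with the number of tested members in parentheses; purple points had an unadjusted p under 0.05 and 0 of them passed the adjusted threshold in limma. Medians run from -0.638 for the macrophage list to 0.250 for the cell cycle list, and the dotted line is the median of all 7119 genes at -0.009.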

How the data were processed

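The deposited values are linear signal intensities of the probe sets of Affymetrix RAE230 arrays. The submitters' processing notes name MAS5, with a version not given in the sources used here. Groups were taken from the sample titles. Of 15923 probe sets, 57 controls were left out, signals under 1 were set to 1 (0.0637% of values), log2 was taken, and the 40% with the lowest mean log2 signal were left out, which left 9520. limma 3.58.1 in R 4.3.3 fitted all 10 arrays with lmFit and eBayes with a trend, with the contrast SPI minus CAS and Benjamini-Hochberg adjustment. The number of arrays limits the precision. Of the probe sets, 12783 had 1 symbol, 312 had several and 2771 had none; the brightest tested probe set stood for a gene. Genes were named from the 15 highest and 15 lowest differences at an unadjusted p under 0.01 without overlap. Added were 4 of each list by p, and the receptors and milk genes. Not all of these genes are described. Members and lists were chosen with earlier results of these data known. Alternatives covered the filter, the floor, the scaling, the model, the actin ratio, the replicate number and each array left out. Scripts were tested on simulated data. Promoters are RefSeq's, matched by symbol.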

Additional observations from a re-analysis of the deposited data

Results flagged for a closer look

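For 11 of 208 results tested on the 4 SPI arrays, 1 array lay far from the other 3, and chance flags about 1 in 20. The other 3 arrays are given as a range. For Mgp, SPI 5 had a signal of 15404, below 16318 to 16384. Hes1 had 948 on SPI 3, below 1414 to 1485. Herpud1 had 2119.8 on SPI 4, above 1033 to 1168. For Fdft1, an enzyme of cholesterol synthesis, SPI 5 had 256, below 329 to 345. For Tgfbr3, a co-receptor of TGF-beta, SPI 4 had 217, below 316 to 337. For Dvl1, a relay of Wnt signals, SPI 2 had 169.8, below 278 to 301. Pi16 had 858 on SPI 5, above 296 to 350.1. RT1-Bb had 876 on SPI 2, above 69.0 to 100.4. Of the list means on the log2 scale, that of p53 targets was 9.15 on SPI 4, above 9.05 to 9.06, that of xenobiotic and steroid metabolism 9.31 on SPI 5, above 9.09 to 9.12, and that of clock genes 9.51 on SPI 2, above 9.27 to 9.31.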

How the results depend on the processing

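The count of probe sets at an adjusted p under 0.05 in limma was 0 to 2 over the arrays left out and 1 with CAS 1 and SPI 4 both left out. At an unadjusted p under 0.05, the 146 higher probe sets were 267 without a filter, 300 with arrays centred on the median and 96 to 285 over the arrays left out. The 313 lower ones were 509 without a filter, 179 with the lowest 60% left out, 174 with arrays centred on the median, 177 with CAS 1 and SPI 4 both left out and 200 to 441 over the arrays left out.

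CAS and SPI share only the replicate numbers 2 and 3. The deviations of same-numbered arrays correlated at -0.183 and -0.018, and those of differently numbered arrays at -0.188 to 0.302. With only 2 same-numbered pairs, these values cannot decide whether the numbers pair the arrays. With the replicate number as a block, 100 probe sets were higher and 170 lower at an unadjusted p under 0.05 and 0 at an adjusted one.

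Of the named genes, these turned in direction, given as log2 differences. Over the arrays left out, Csn2 ranged from -0.68 to 0.65, Csn3 from -0.46 to 0.30, Glycam1 from -0.70 to 0.89, Hbb from -0.19 to 0.14, Alas2 from -0.31 to 0.06, Csn1s1 from -0.05 to 0.54, Mvk from -0.24 to 0.84, Cry2 from -0.03 to 0.72, Hbegf from -0.13 to 0.50 and Pmp22 from -0.01 to 0.26. Csn2 was 0.06 with arrays centred on the median, 0.33 with array quality weights, 0.69 with the replicate block, 0.04 with the actin ratio as a covariate and 1.12 without CAS 1 and SPI 4. Csn3 was 0.20 with quality weights, 0.42 with the block and 0.54 without both arrays. Hbb was 0.03 with arrays centred on the median, and Stat5a 0.01 with the block. The cause of these turns was not tested.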
